A study of Mus musculus with 9 samples.

Results

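The genes described here are 36 mouse genes of cholesterol synthesis, fatty acid synthesis and their control, known as targets or regulators of the sterol regulatory element-binding proteins (SREBPs). They were taken from a list of symbols by function, drawn up with earlier results of these data known, and all 36 were found among the 55536 genes of the count table. By role they comprise 7 genes of the mevalonate steps, 11 of the squalene and sterol steps, 6 of SREBP control and sterol transport, and 12 of fatty acid synthesis and its supply.

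The genes were measured by RNA sequencing in bone marrow-derived macrophages (BMDM), which are macrophages grown from bone marrow cells with the growth factor M-CSF. The marrow came from male mice of 6 to 12 weeks, and M-CSF was given at 25 ng/mL over 6 days in medium with 10% fetal bovine serum. There were 3 groups of 3 libraries, and the recipient cells of every group were labelled wild-type. The EKO-exo group (EKO-BMDM-exo in the labels) received exosomes, small vesicles shed by cells, made by BMDM of ApoE-deficient mice, the WT-exo group (WT-BMDM-exo) received exosomes of wild-type BMDM, and the control group received PBS. Exosomes were given at 2e+09 particles/mL and all cells were collected after 18 hours. ApoE is a lipoprotein component that macrophages secrete. The labels give no strain and do not say how many mice or exosome preparations stand behind a group, and p-values therefore reflect only how much these 9 libraries vary.

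SREBPs are transcription factors held in the endoplasmic reticulum membrane by the sterol sensor Scap and the Insig proteins while sterols are plentiful. When sterols run low, Scap carries them to the Golgi, where proteases release the part that enters the nucleus. There it binds sterol regulatory elements, usually with the co-activators NF-Y and Sp1, and raises transcription of genes for cholesterol and fatty acid synthesis, of Insig1 and of Srebf2 itself. In macrophages, which take up much cholesterol from other cells and lipoproteins, this programme is balanced against the export of cholesterol through Abca1.

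The libraries held 28581306 to 35929596 counts each, and 13815 genes passed the filter on low counts and were tested, all 36 of the SREBP genes among them. In a principal component analysis, WT-exo library 3 stood apart on component 1 (57.5, against -16.8 to 3.43 in the others), and EKO-exo library 2 (38) and WT-exo library 2 (-45.4) stood at opposite ends of component 2. Calls of single genes that were lost or gained without these 3 libraries are named as such below, and leaving them out keeps 1 WT-exo library. All 10 macrophage markers were expressed, with a summed level of 21500 to 22500 CPM (counts scaled to the library's total) in EKO-exo, 21800 to 22400 in WT-exo and 23600 to 24800 in PBS cells. Of these markers 8 were lower in EKO-exo than in PBS cells, and in WT-exo cells 7 were lower and 1 was higher at an edgeR adjusted p under 0.05, against 2.41% of all tested genes lower in EKO-exo, and 2.18% lower and 1.93% higher in WT-exo. Among 6 markers of adipocytes, another lipid-synthesising cell, Adipoq, Lep, Cidec and Cfd had 0 counts in all libraries, and the summed level was 43 to 46.8 CPM in EKO-exo, 37.4 to 51.7 in WT-exo and 29.8 to 36.4 in PBS cells, nearly all of it Fabp4, which macrophages also express. Fabp4, the only 1 of these 6 that was tested, was called higher than in PBS cells in both exosome groups. It rose by 34% in EKO-exo (edgeR adjusted p = 0.00511) and 31.2% in WT-exo (0.012), against 1.82% and 1.93% of all tested genes higher. The 7 neutrophil markers summed to 2.88 to 12.6 CPM in EKO-exo, 8.23 to 24.8 in WT-exo and 17.3 to 21.9 in PBS cells. For all 4 of them that were tested (S100a8, S100a9, Ngp and Camp), every EKO-exo library was below every PBS library, against 9.24% of all tested genes, and none was called. The 7 fibroblast and stromal markers summed to 5.85 to 25.3 CPM in EKO-exo, 16.8 to 30.2 in WT-exo and 9.11 to 64.6 in PBS cells. Col1a1, for example, had 35.8 CPM in PBS library 3, against 6.24 and 6.56 CPM in PBS libraries 1 and 2. None of the 5 of these markers that were tested was called in either exosome group against PBS. The part of these marker differences in the results below was not tested. In bulk RNA, fewer cells of a type and less RNA per cell cannot be told apart.

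Promoters were searched for the elements through which SREBPs and their co-activators are known to act, and those shown are of the 3 genes called in any comparison (Srebf2, Insig1 and Fasn) and of the other 2 that held the core element (Hmgcs1 and Msmo1). Of the 36 genes, 29 had an entry in RefSeq's promoter table (build GRCm38.p6), and the 250 bases before each start were searched on both strands. The 7 without an entry, which were not searched, were Fdps, Fdft1, Sqle, Stard4, Scd1, Scd2 and Fads1. The core of the sterol regulatory element, TCACNCCA, was in 3 of 29 (10.3%), against 4.09% of the 9971 tested genes with an entry. The full element, which is the core with an A before it and a C after it, was in none of the 29 and in 0.191% of tested genes, and the core was searched because the full element gave no match. The NF-Y box CCAAT was in 22 of 29 (75.9%), against 40.5% of tested genes. The GC box GGGCGG, bound by Sp1, was in 23 of 29 (79.3%), against 63% of tested genes, and the E-box CACGTG was in 6 of 29 (20.7%), against 9.97%. These are matches of letters in a short window, not measured binding. The sequences below run 5′ to 3′ toward the start, and capitals mark the core and the NF-Y box on either strand.
Srebf2 (chr15:82147019-82147268, plus strand): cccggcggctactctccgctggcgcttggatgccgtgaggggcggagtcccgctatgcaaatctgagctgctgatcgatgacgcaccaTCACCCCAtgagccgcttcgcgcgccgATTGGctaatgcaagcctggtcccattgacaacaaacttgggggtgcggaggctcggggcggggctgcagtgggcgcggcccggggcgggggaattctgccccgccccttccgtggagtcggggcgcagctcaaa
Insig1 (chr5:28071162-28071411, plus strand): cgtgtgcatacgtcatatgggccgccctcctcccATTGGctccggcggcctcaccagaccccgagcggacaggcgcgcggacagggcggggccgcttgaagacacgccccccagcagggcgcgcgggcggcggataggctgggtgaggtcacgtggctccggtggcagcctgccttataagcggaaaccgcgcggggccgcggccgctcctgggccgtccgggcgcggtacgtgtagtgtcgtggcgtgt
Fasn (chr11:120824548-120824797, minus strand): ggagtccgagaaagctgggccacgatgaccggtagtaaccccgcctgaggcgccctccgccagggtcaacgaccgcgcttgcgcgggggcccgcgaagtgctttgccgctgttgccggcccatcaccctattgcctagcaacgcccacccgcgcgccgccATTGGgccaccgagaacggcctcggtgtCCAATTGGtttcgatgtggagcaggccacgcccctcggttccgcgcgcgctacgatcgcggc
Hmgcs1 (chr13:119690101-119690350, plus strand): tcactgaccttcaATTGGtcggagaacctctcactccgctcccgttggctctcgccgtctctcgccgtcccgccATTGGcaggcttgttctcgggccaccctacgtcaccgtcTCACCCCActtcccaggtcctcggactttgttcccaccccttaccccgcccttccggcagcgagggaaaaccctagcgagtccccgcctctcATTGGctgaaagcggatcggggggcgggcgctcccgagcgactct
Msmo1 (chr8:64733579-64733828, minus strand): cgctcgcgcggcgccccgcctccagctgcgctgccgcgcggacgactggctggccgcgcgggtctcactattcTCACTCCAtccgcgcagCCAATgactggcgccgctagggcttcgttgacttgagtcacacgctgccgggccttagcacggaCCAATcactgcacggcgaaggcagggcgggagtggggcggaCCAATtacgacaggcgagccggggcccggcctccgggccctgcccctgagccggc

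In Srebf2 the core begins at position -162 from the start and is followed by an NF-Y box at -135. In Hmgcs1 the core is at -137 with NF-Y boxes at -237, -176 and -45, and in Msmo1 it is at -177 with NF-Y boxes at -160, -96 and -55. Neither Insig1 nor Fasn held the core in this window. Insig1 had 1 NF-Y box at -216 and an E-box at -101, and Fasn had NF-Y boxes at -90, -62 and -59, of which the last 2 overlap.

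The 36 genes spanned a wide range of levels. Expressed as CPM per kilobase of all annotated exons, which understates genes with many or long isoforms, Acly, the ATP citrate lyase that supplies cytosolic acetyl-CoA, was highest with 37.2 ± 1.96 in EKO-exo, 38.1 ± 1.11 in WT-exo and 36.3 ± 2.92 in PBS cells (SD, n = 3 each, as for all means below). The desaturase gene Fads1 came next, at 27.3 ± 0.922 in EKO-exo, 27.9 ± 1.08 in WT-exo and 28.4 ± 0.465 in PBS cells. The elongase gene Elovl5 followed at 21.9 ± 1.54 in EKO-exo, 21.4 ± 1.46 in WT-exo and 23.2 ± 1.57 in PBS cells, and Srebf2 at 20.7 ± 1.13 in EKO-exo, 21.7 ± 0.877 in WT-exo and 18.8 ± 1.76 in PBS cells. Elovl5 and Srebf2 differed by no more than their spread in the exosome groups, whereas Acly and Fads1 were apart from each other in every group.

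At the low end, the stearoyl-CoA desaturase gene Scd1 had 0.424 ± 0.0785 CPM per kilobase in EKO-exo, 0.412 ± 0.102 in WT-exo and 0.347 ± 0.108 in PBS cells, and its paralog Scd2 had 4.22 ± 0.141 in EKO-exo, 4.63 ± 0.25 in WT-exo and 4.5 ± 0.215 in PBS cells. Idi1 and Fdps, which make and join the isoprene units, were lower still, with 7 to 45 and 9 to 65 counts per library. Of the 50-base words in their annotated transcripts, 25.3% for Idi1 and 26.2% for Fdps also occur in transcripts of other genes. The share was 26.5% for Fdft1, 30.4% for Acaca and 39.1% for Acat2, whose words recur in Acat3 and Tcp1. How the counting treated reads that match several genes is not given, so the values of these 5 genes are uncertain.

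**Figure D1:**
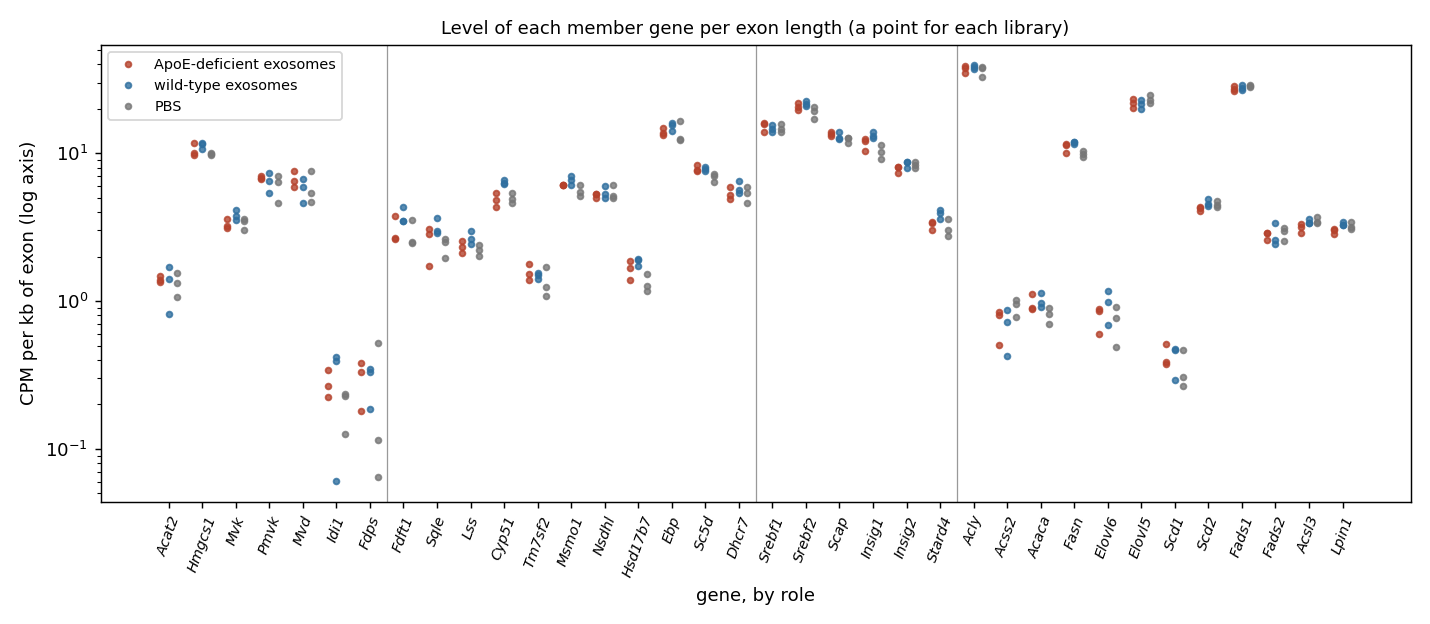
Level of each of the 36 genes, in CPM per kilobase of exon on a log axis, with a point for each library (EKO-exo, WT-exo and PBS from left to right within a gene) and lines between the 4 roles. Acly, Fads1, Elovl5 and Srebf2 are highest, Idi1, Fdps and Scd1 lowest, and the groups lie close together beside the differences between genes.

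WT-exo against PBS compares cells given the exosome preparation of wild-type macrophages with cells given PBS. No group received a mock preparation, so the vesicles and other material in the preparation cannot be told apart. Of the 36 genes, 3 rose and none fell: the transcription factor gene Srebf2, its feedback inhibitor Insig1 and the fatty acid synthase gene Fasn, at an edgeR quasi-likelihood adjusted p under 0.05 over all tested genes. Of the 36 genes that is 8.33%, against 4.11% of all tested genes called in this comparison (1.93% higher and 2.18% lower). Without the adjustment, 13 of the 36 (36.1%) were higher and 1 was lower at p under 0.05, against 6.78% and 7.23% of all tested genes. For 11 of the 36 (30.6%) every WT-exo library was above every PBS library, against 8.59% of all tested genes, and for none was every WT-exo library below, against 8.87%. Without the 3 libraries that stood apart, the 1 WT-exo library left was above all PBS libraries for 17 of 36 (47.2%), against 26.2% of all tested genes, and below them for 7 (19.4%), against 26.1%. The log2 fold change was above 0 for 28 of 36, with a median of 0.16, against 49.2% of all tested genes and a median of -0.0033. The median was 0.11 without those 3 libraries.

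Srebf2 encodes SREBP-2, the family member that mainly drives cholesterol synthesis, and spans chr15:82147181-82205379 (GRCm38). It had 149, 155 and 162 CPM in the WT-exo libraries, against 138, 122 and 146 CPM in the PBS libraries. All WT-exo libraries were above all PBS libraries, but WT-exo library 1 lay just above PBS library 3. The log2 fold change was 0.20 ± 0.055 (SE), a rise of 14.9% (95% interval 6.37% to 24.1%, edgeR adjusted p = 0.0253). The adjusted p was 0.272 without PBS library 2, 0.0706 without WT-exo library 2 and 0.146 without WT-exo library 3, and 0.645 without the 3 libraries that stood apart, when the log2 fold change was 0.15.

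Insig1 (chr5:28071363-28078662), which holds Scap and the SREBPs in the endoplasmic reticulum and is itself an SREBP target, had 40.5, 39.2 and 43.3 CPM in the WT-exo libraries, against 35.1, 28.1 and 31.6 CPM in the PBS libraries. The groups did not overlap. Its log2 fold change of 0.38 ± 0.094, a rise of 29.8% (13.7% to 48.3%), was the largest of the 3 called genes (edgeR adjusted p = 0.0127). The adjusted p was 0.121 without PBS library 2, 0.0772 without WT-exo library 3 and 0.256 without the 3 libraries that stood apart. Fasn (chr11:120805846-120824547), which builds palmitate, had 131, 130 and 126 CPM in the WT-exo libraries, against 109, 103 and 114 CPM in the PBS libraries. Again every WT-exo library was above every PBS library, and the WT-exo values were tightly grouped. Fasn rose by 18.8% (10.1% to 28.2%, log2 fold change 0.25 ± 0.054, edgeR adjusted p = 0.00322), and its adjusted p stayed under 0.05 in all 17 alternatives tried, with 0.0471 the highest.

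**Figure D2:**
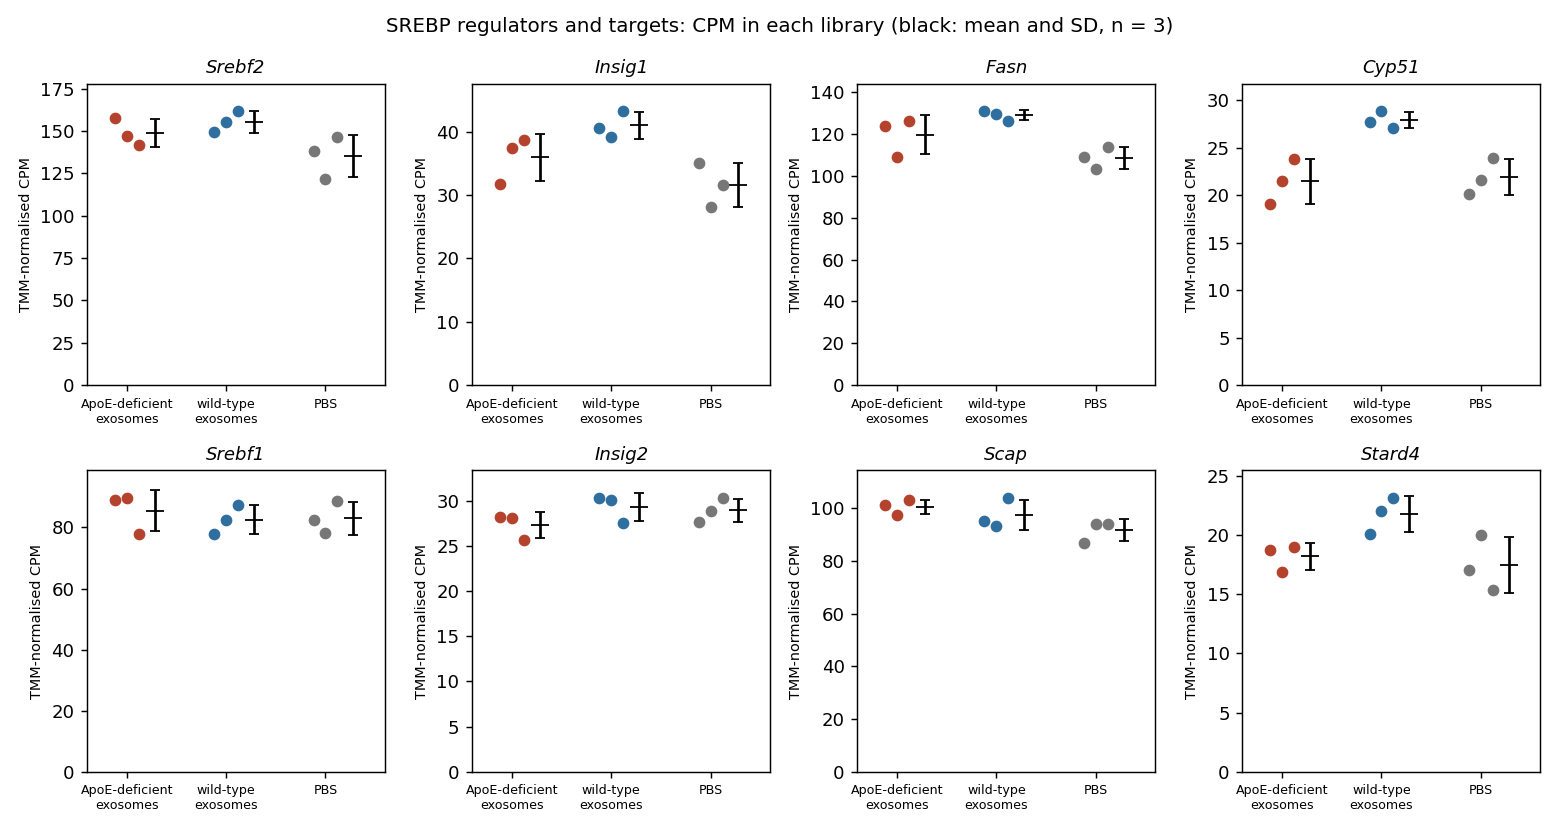
TMM-normalised CPM of 8 genes in each library, by group, with the mean and SD in black (n = 3). In the upper row Srebf2, Insig1 and Fasn are higher in all WT-exo than in all PBS libraries, and Cyp51 is higher in WT-exo than in both other groups. In the lower row Srebf1, Insig2 and Scap overlap between WT-exo and PBS, and Stard4 is highest in WT-exo.

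The other genes of SREBP control and transport did not pass the adjusted threshold. Srebf1, which encodes the SREBP-1 proteins that mainly drive fatty acid synthesis, had 77.8, 82.3 and 87.3 CPM in the WT-exo libraries, against 82.3, 78 and 88.5 CPM in the PBS libraries. The groups overlapped fully, and the log2 fold change was -0.0084 ± 0.065 (95% interval of the change -9.23% to 8.89%). Insig2, the other Insig gene, had 30.3, 30.1 and 27.5 CPM in the WT-exo libraries and 27.7, 28.8 and 30.2 CPM in the PBS libraries, also overlapping (log2 fold change 0.019 ± 0.095). Scap had 95, 93.2 and 104 CPM in the WT-exo libraries and 86.7, 94 and 93.9 CPM in the PBS libraries (0.089 ± 0.057, adjusted p = 0.545). Stard4, a cytosolic sterol transporter, had 20.1, 22 and 23.2 CPM in the WT-exo libraries, against 17, 20 and 15.3 CPM in the PBS libraries. The groups did not overlap, by a margin of under 0.1 CPM between WT-exo library 1 and PBS library 2, and the change of 0.32 ± 0.12 was not called (edgeR adjusted p = 0.16).

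The squalene and sterol steps, which turn farnesyl units into cholesterol, were the most uniform role in this comparison. All 11 genes had a log2 fold change above 0, against 49.2% of all tested genes, with a median of 0.24. At an unadjusted p under 0.05, 7 (63.6%) were higher, against 6.78% of all tested genes, and none passed the adjusted threshold. The closest was Cyp51, the lanosterol demethylase, given by library after its values were seen. It had 27.8, 28.9 and 27.1 CPM in the WT-exo libraries, against 20.2, 21.6 and 23.9 CPM in the PBS libraries, with no overlap. The log2 fold change was 0.35 ± 0.11 (27.4%, 9.43% to 48.3%) with an edgeR adjusted p of 0.0597. It was called in 5 of 17 alternatives, among them DESeq2 (0.033) and limma-voom (0.0468), and the adjusted p reached 0.475 without the 3 libraries that stood apart.

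Of the other enzymes of these steps, Hsd17b7, Sqle and Fdft1 had larger but less certain differences than Cyp51. Hsd17b7, a sterol ketoreductase, averaged 9.43 ± 0.541 CPM in WT-exo and 6.7 ± 0.907 CPM in PBS cells (log2 fold change 0.49 ± 0.18), and Sqle, the squalene epoxidase that controls entry into sterol synthesis, averaged 17.6 ± 2.33 CPM in WT-exo and 13.1 ± 1.92 CPM in PBS cells (0.43 ± 0.16). Neither overlapped between the groups, and both had adjusted p-values above 0.13. Fdft1, the squalene synthase gene, averaged 15.8 ± 2.07 CPM in WT-exo and 11.9 ± 2.57 CPM in PBS cells (0.41 ± 0.16), with overlap, and 18.3% of its exon length overlaps that of Ctsb. The cyclase gene Lss and the desaturase gene Sc5d were at 0.28 ± 0.11 and 0.19 ± 0.086 without overlap, and Msmo1 was at 0.24 ± 0.088 with overlap. The remaining genes of these steps, Tm7sf2, Nsdhl, Ebp and Dhcr7, ranged from 0.0076 for Nsdhl to 0.14 for Dhcr7.

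Of the 7 genes of the mevalonate steps, the condensing enzyme gene Hmgcs1 had no overlap, with 52.1 ± 2.34 CPM in WT-exo and 45.6 ± 0.581 CPM in PBS cells (log2 fold change 0.19 ± 0.08, adjusted p = 0.22). Exons of Gm48342, on the opposite strand, overlap 12.1% of Hmgcs1's exon length, and whether counting used strand is not given. The kinase genes Mvk and Pmvk, the decarboxylase gene Mvd and Acat2 were between -0.027 and 0.18 and overlapped. The intervals for Idi1 (-44.4% to 294%) and Fdps (-48.2% to 201%) were wide and held changes of the size seen for the called genes in either direction. Fdps, for example, had 1.4, 0.786 and 1.47 CPM in the WT-exo libraries, against 2.19, 0.274 and 0.482 CPM in the PBS libraries.

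Fatty acid synthesis and its supply did not move as a group, with 7 of 12 genes (58.3%) above 0, against 49.2% of all tested genes. The median log2 fold change of these 12 genes was 0.042. Beside Fasn, the acetyl-CoA carboxylase gene Acaca had no overlap, with 17.2 ± 1.88 CPM in WT-exo and 13.7 ± 1.68 CPM in PBS cells (0.33 ± 0.14, adjusted p = 0.231). The acetyl-CoA synthetase gene Acss2 lay in the other direction, with 6.8 ± 2.27 CPM in WT-exo and 9.32 ± 1.24 CPM in PBS cells (-0.46 ± 0.22, adjusted p = 0.321). Scd1 had 2.32, 1.44 and 2.29 CPM in the WT-exo libraries and 2.29, 1.49 and 1.3 CPM in the PBS libraries, and Scd2 had 24.2, 26.8 and 24.9 CPM in the WT-exo libraries and 24.3, 23.6 and 25.9 CPM in the PBS libraries. Both overlapped. Acly, Fads1 and Fads2 differed by no more than 5% between the group fits, and Elovl5 was at -0.12 ± 0.067 (adjusted p = 0.468).

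EKO-exo against PBS makes the same comparison for the exosome preparation of ApoE-deficient macrophages, with the same limit. None of the 36 genes passed edgeR's adjusted threshold, and none did with DESeq2 or limma-voom, whereas 4.23% of all tested genes were called, 1.82% higher and 2.41% lower. At an unadjusted p under 0.05, 4 of 36 (11.1%) were higher and 0 were lower, against 6.51% and 6.56% of all tested genes. The 4 genes were Sc5d, Scap, Srebf2 and Fasn. The log2 fold change was above 0 for 25 of 36, with a median of 0.086, against 49.8% and -0.00052 over all tested genes. No overlap was seen for 2 higher genes, Sc5d and Scap, and 2 lower ones, Acsl3 and Lpin1 (5.56% each way), against 9.06% higher and 9.24% lower of all tested genes, so non-overlap was no more frequent than in the background. Without the 3 libraries that stood apart it was 4 of 36 (11.1%) each way, against 13.8% higher and 13.5% lower.

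Scap had 101, 97.6 and 103 CPM in the EKO-exo libraries, against 86.7, 94 and 93.9 CPM in the PBS libraries, with every EKO-exo library higher (log2 fold change 0.14 ± 0.057, edgeR adjusted p = 0.249). Exons of 5830462I19Rik overlap 13.2% of Scap's exon length, and whether counting used strand is not given. Srebf2 had 158, 147 and 142 CPM in the EKO-exo libraries, against 138, 122 and 146 CPM in the PBS libraries, with overlap (0.14 ± 0.055, adjusted p = 0.205). Fasn had 124, 109 and 126 CPM in the EKO-exo libraries, against 109, 103 and 114 CPM in the PBS libraries, also with overlap (0.14 ± 0.054, adjusted p = 0.175). Leaving out a single library moved a gene past the threshold: Fasn without EKO-exo library 2 (adjusted p = 0.0341) and Srebf2 without PBS library 3 (0.0437). Fasn also passed without the 3 libraries that stood apart (0.0419).

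Insig1 had 31.8, 37.5 and 38.8 CPM in the EKO-exo libraries, against 35.1, 28.1 and 31.6 CPM in the PBS libraries. EKO-exo library 1 lay among the PBS libraries and the other 2 above them (log2 fold change 0.19 ± 0.095, interval -0.301% to 30.1%). Srebf1 had 88.9, 89.7 and 77.8 CPM, Insig2 28.2, 28.1 and 25.6 CPM and Stard4 18.8, 16.9 and 19 CPM in the EKO-exo libraries. All 3 overlapped the PBS libraries, with log2 fold changes of 0.042 ± 0.065, -0.084 ± 0.095 and 0.062 ± 0.12. Scd1 had 2.52, 1.89 and 1.82 CPM and Scd2 23.2, 23.8 and 22.2 CPM in the EKO-exo libraries, which overlapped the PBS libraries too. The median log2 fold change was 0.18 in the mevalonate steps, 0.10 in the squalene and sterol steps, 0.098 in SREBP control and transport and -0.052 in fatty acid synthesis. Cyp51, with 19, 21.5 and 23.9 CPM in the EKO-exo libraries, was at the level of the PBS libraries (-0.031 ± 0.11).

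**Figure D3:**
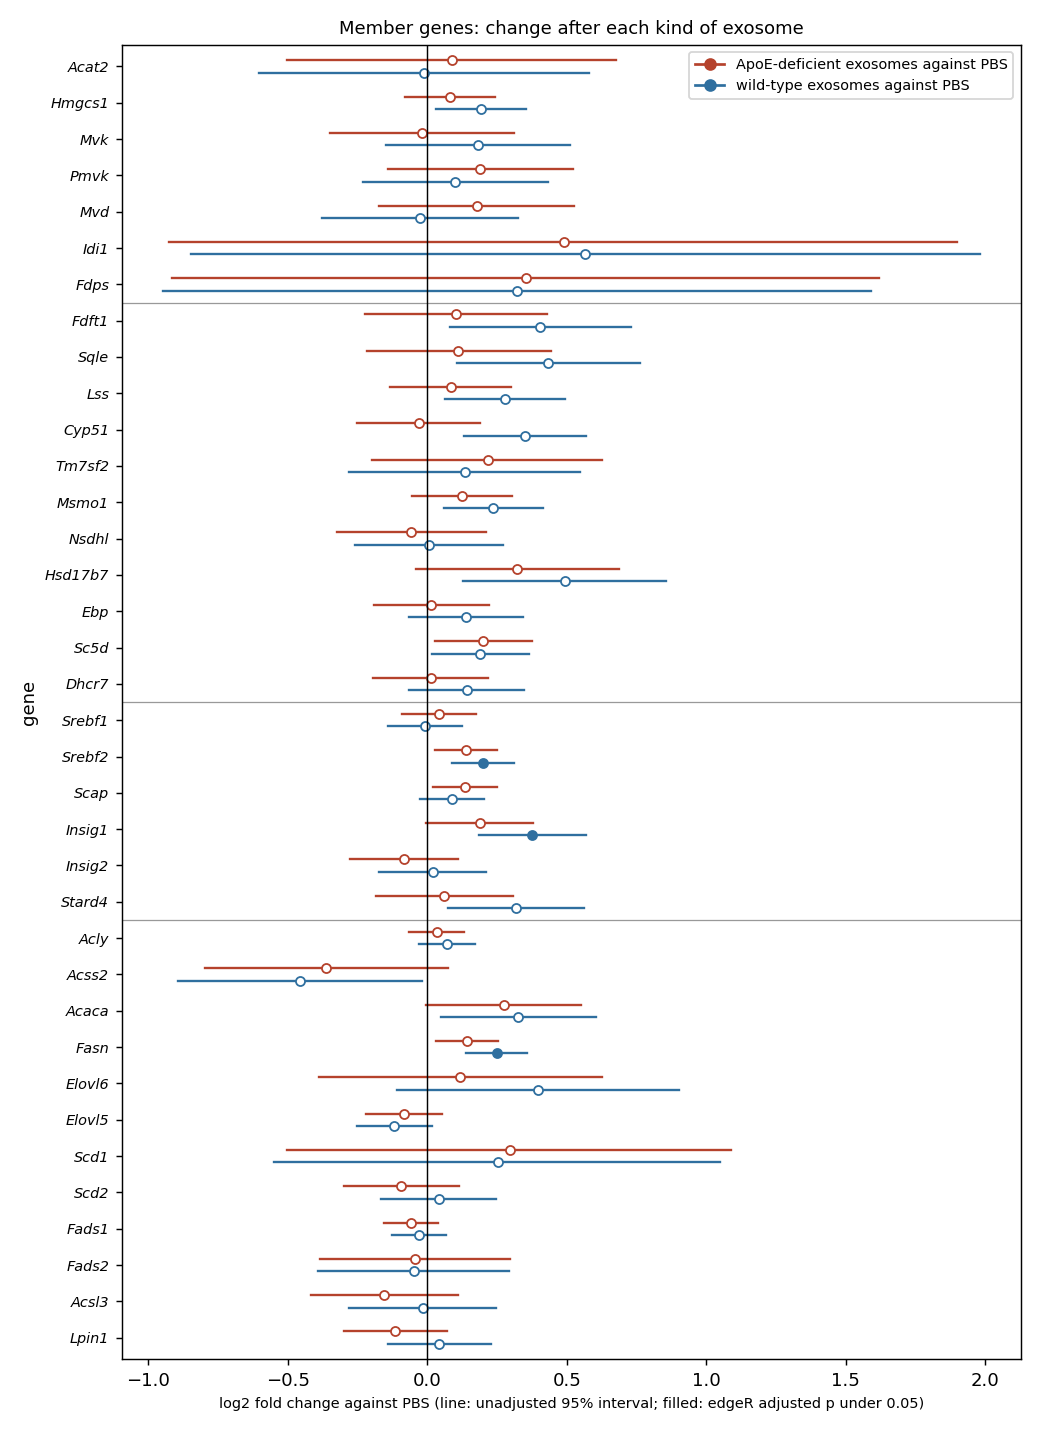
Log2 fold change of each of the 36 genes against PBS, in EKO-exo (red, above) and WT-exo (blue, below), with unadjusted 95% intervals. Filled points passed the edgeR adjusted threshold, which Srebf2, Insig1 and Fasn did in WT-exo and no gene did in EKO-exo. Both comparisons share the PBS libraries.

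EKO-exo against WT-exo sets the exosome groups against each other directly. No gene of the 36 was called by edgeR, DESeq2 or limma-voom, against 0.695% of all tested genes, 0.282% higher and 0.413% lower. At an unadjusted p under 0.05, 0 were higher and 2 (5.56%), Cyp51 and Stard4, were lower, against 4.11% and 4.04% of all tested genes, 8.15% in all. Every EKO-exo library was below every WT-exo library for 7 of 36 genes (19.4%), against 7.01% of all tested genes, and above for none, against 7.04%. These 7 were Cyp51, Insig1, Stard4, Fasn, Scd2, Acsl3 and Lpin1. Without the 3 libraries that stood apart, the share below (14 of 36, 38.9%) was near that of all tested genes (34.5%), and 6 (16.7%) were above, against 33.8%. The log2 fold change was below 0 for 24 of 36, and above 0 for 12, with a median of -0.09, whereas 50.1% of all tested genes were above 0, with a median of 0.00019.

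Cyp51 had the lowest p, with 19, 21.5 and 23.9 CPM in the EKO-exo libraries, against 27.8, 28.9 and 27.1 CPM in the WT-exo libraries. The difference was -0.38 ± 0.11 on the log2 scale, or -23.2% (95% interval -34% to -10.6%), with an edgeR adjusted p of 0.11. For the genes that rose in WT-exo against PBS, the direct difference was not called: Insig1 was at -0.19 ± 0.094 (-23.1% to 0.115%, adjusted p = 0.619), Fasn at -0.11 ± 0.054 (-13.9% to 0.2%, adjusted p = 0.63) and Srebf2 at -0.062 ± 0.055 (-11.3% to 3.43%, adjusted p = 0.864). Their rise in WT-exo cells is thus not shown to be absent from EKO-exo cells. Stard4 was at -0.26 ± 0.12 (-29.3% to -0.814%, adjusted p = 0.565). Lpin1, a phosphatidate phosphatase, averaged 28.7 ± 1.12 CPM in EKO-exo and 32 ± 0.798 CPM in WT-exo cells, and the acyl-CoA synthetase gene Acsl3 averaged 13.7 ± 0.961 CPM in EKO-exo and 15 ± 0.469 CPM in WT-exo cells. Scd2 averaged 23.1 ± 0.768 CPM in EKO-exo and 25.3 ± 1.36 CPM in WT-exo cells. The squalene and sterol steps had 9 of 11 genes below 0 with a median of -0.13. In the mevalonate steps 3 of 7 were below 0, with a median of 0.032. Of all 13815 tested genes, 6900 were below 0.

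With the exosome groups weighted equally and set against PBS, the same 3 genes were called: Srebf2 at 0.17 ± 0.048 (edgeR adjusted p = 0.027), Insig1 at 0.28 ± 0.083 (0.0354) and Fasn at 0.20 ± 0.047 (0.00721). Of all tested genes 5.31% were called in this comparison, 2.52% higher and 2.79% lower. At an unadjusted p under 0.05, 8 of the 36 were higher and 1 was lower, against 7.22% and 7.83% of all tested genes, and 27 had a log2 fold change above 0, against 48.4%. Sc5d was the only one of the 36 for which all 6 exosome libraries were above all 3 PBS libraries (37.1, 37.5 and 40.4 CPM in EKO-exo and 38, 37 and 39.1 CPM in WT-exo, against 34.9, 31.2 and 33.9 CPM in PBS), and 3.99% of all tested genes met that description. None of the 36 had all exosome libraries below all PBS libraries, against 3.94% of all tested genes. Its adjusted p was 0.153. Without PBS library 2, which was lowest of the 9 libraries for Srebf2, Insig1 and Fasn, none of the 36 was called in this comparison, and the adjusted p was 0.397 for Srebf2, 0.307 for Insig1 and 0.102 for Fasn. Without WT-exo library 3, or without the 3 libraries that stood apart, Fasn alone was called.

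Viewed library by library, as the log2 CPM of each gene minus its PBS mean, the median over the 36 genes was 0.091, 0.014 and 0.13 in the EKO-exo libraries, 0.11, 0.15 and 0.21 in the WT-exo libraries, and -0.0027, -0.08 and 0.047 in the PBS libraries. All WT-exo libraries were above all PBS libraries, and EKO-exo library 2 lay among the PBS values. For the 11 squalene and sterol genes alone the medians were 0.12, -0.024 and 0.16 in the EKO-exo libraries, 0.26, 0.3 and 0.23 in the WT-exo libraries, and -0.055, -0.093 and 0.029 in the PBS libraries. Here the WT-exo libraries were above those of both other groups. In the mevalonate steps the medians were 0.11, 0.19 and 0.24 in EKO-exo and 0.07, 0.19 and 0.23 in WT-exo libraries. The PBS libraries were at 0.028, 0.0012 and -0.019. In SREBP control and transport they were 0.11, 0.1 and 0.1 in EKO-exo and 0.11, 0.13 and 0.22 in WT-exo libraries. The PBS libraries were at -0.019, -0.045 and 0.052. In both roles the median of every exosome library was above that of every PBS library. Gene by gene, every EKO-exo library was above every PBS library for 0 of 7 mevalonate genes and 1 of 6 control and transport genes. For WT-exo this held for 1 of 7 and 3 of 6. Of all tested genes it held for 9.06% in EKO-exo and 8.59% in WT-exo. The fatty acid medians overlapped between the groups. Of the 11 squalene and sterol genes, 10, 11 and 10 were above the PBS mean in WT-exo libraries 1, 2 and 3. The counts were 7, 4 and 9 in the EKO-exo libraries and 4, 4 and 7 in the PBS libraries. For these medians and counts by library the share over all tested genes was not computed.

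**Figure D4:**
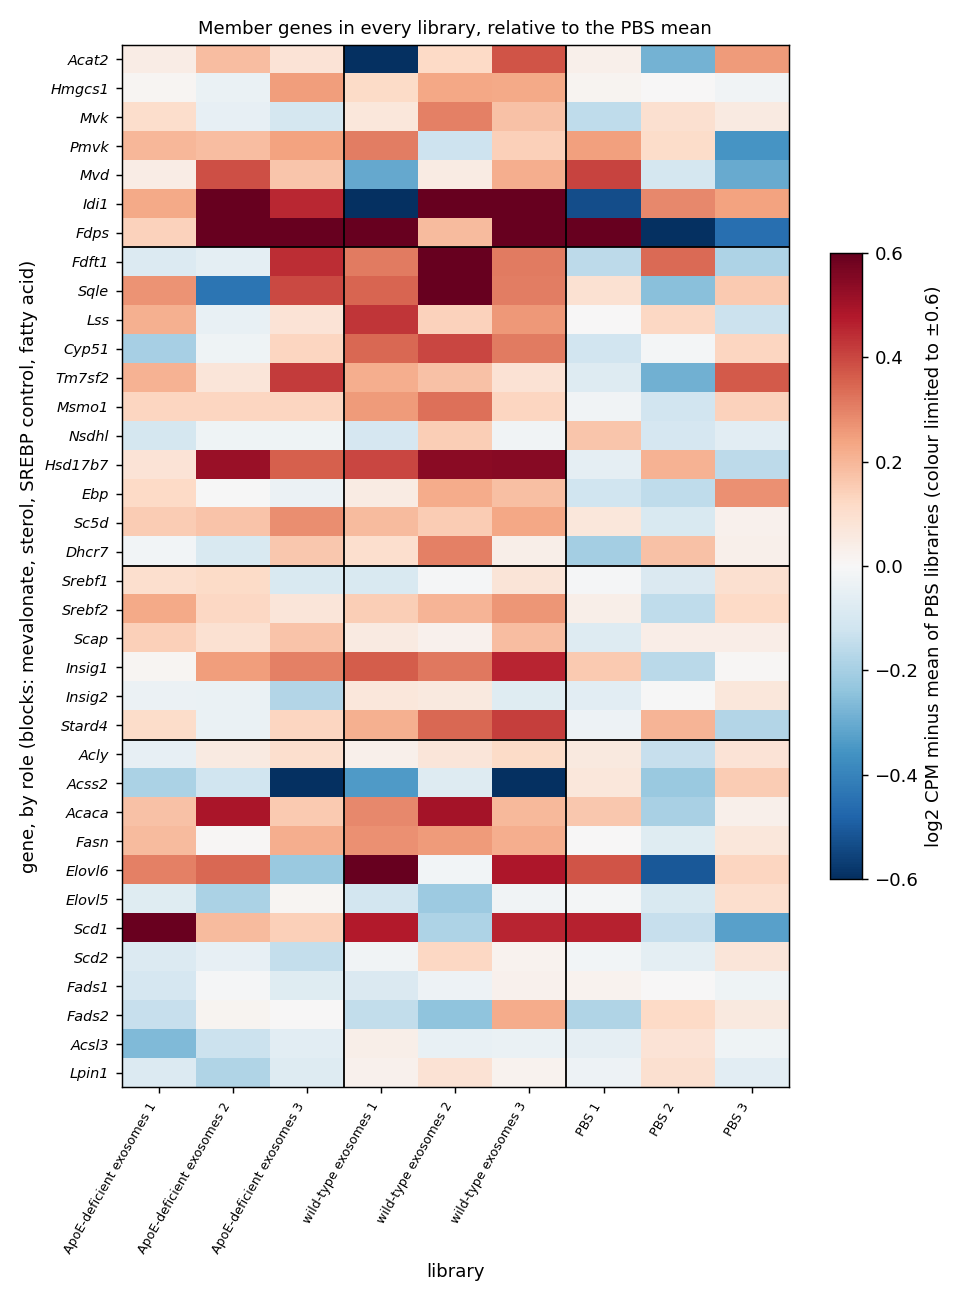
Log2 CPM of each gene in each library minus its mean over the PBS libraries, with colour limited to 0.6 either way and lines between groups and roles. The squalene and sterol block is red in nearly every tile of the WT-exo libraries and mixed in the EKO-exo libraries, and the fatty acid block is mixed throughout.

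Other genes of the pathway were read from lists of their function. Of 12 genes that process or degrade SREBPs or their partners, 1 rose in each exosome group, against 1.82% of all tested genes in EKO-exo and 1.93% in WT-exo: Fbxw7, part of a ubiquitin ligase that marks nuclear SREBPs for destruction. It averaged 34.6 ± 1.33 CPM in EKO-exo, 35.8 ± 6.18 CPM in WT-exo and 26.9 ± 1.77 CPM in PBS cells (log2 fold change 0.36 ± 0.1 in EKO-exo and 0.41 ± 0.1 in WT-exo against PBS, edgeR adjusted p = 0.029 and 0.0114). Of 16 genes of the mevalonate branches and of electron supply, 1 rose in each group, against the same shares: Por, the reductase that feeds electrons to Cyp51 and Sqle. Por had 757, 755 and 767 CPM in the EKO-exo libraries and 736, 720 and 730 CPM in the WT-exo libraries, against 621, 631 and 661 CPM in the PBS libraries. All exosome libraries were above all PBS libraries, and the rise was 19% in EKO-exo (edgeR adjusted p = 3.53e-07) and 14.2% in WT-exo (5.56e-05). Por passed in all 17 alternatives in both groups, whereas Fbxw7 missed the threshold in WT-exo without WT-exo library 3 (adjusted p = 0.211), without PBS library 2 (0.0843) and without the 3 libraries that stood apart (0.393). In EKO-exo, Fbxw7 missed it without any 1 of the EKO-exo libraries (0.0646 to 0.145), without PBS library 1 (0.0565) or 2 (0.17), and without the 3 libraries (0.074).

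Of 17 tested genes among 19 other SREBP-linked lipid genes, 3 rose and none fell in EKO-exo, against 1.82% higher and 2.41% lower of all tested genes, and 3 rose and 1 fell in WT-exo, against 1.93% and 2.18%. Fabp5, a fatty acid-binding protein gene, averaged 130.5 ± 1.69 CPM in EKO-exo, 139 ± 4.73 CPM in WT-exo and 103 ± 6.67 CPM in PBS cells, a rise of 27.1% in EKO-exo (edgeR adjusted p = 1.06e-05) and 35.5% in WT-exo (2.12e-07). Aacs, which makes acetoacetyl-CoA from ketone bodies, rose by 26.3% in EKO-exo and 27.9% in WT-exo (adjusted p = 0.0294 and 0.0201). Elovl1 passed in EKO-exo (0.20 ± 0.049) and was at 0.15 ± 0.049 in WT-exo, and Mid1ip1, an activator of acetyl-CoA carboxylase, passed in WT-exo (0.23 ± 0.058) and was at 0.13 ± 0.058 in EKO-exo. Acsl4 fell by 0.20 on the log2 scale in WT-exo and was at -0.012 ± 0.057 in EKO-exo. None of the 5 differed between the exosome groups past the threshold. Fabp5 passed in all 17 alternatives in both groups. The 3 higher calls in EKO-exo came down to 1 without EKO-exo library 2, when Aacs was at an adjusted p of 0.294 and Elovl1 at 0.0778. Those in WT-exo came down to 1 without PBS library 1, when Aacs was at 0.164 and Mid1ip1 at 0.0775. Without the 3 libraries that stood apart, 1 gene was called higher in each group, Fabp5. Single libraries also decided other calls: Aacs in EKO-exo (EKO-exo 1 and PBS 1) and in WT-exo (WT-exo 1 and 2), Elovl1 (EKO-exo 3 and PBS 2), Mid1ip1 (PBS 2 and WT-exo 3) and Acsl4 (EKO-exo 3, PBS 1 and 3, WT-exo 2 and 3). The adjusted p of Acsl4 was 0.262 without PBS library 1. Without the 3 libraries that stood apart, its log2 fold change was -0.137.

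Of 13 tested genes among 14 of sterol storage, oxysterols and efflux, 3 rose and 1 fell in EKO-exo, against 1.82% higher and 2.41% lower of all tested genes, and 3 rose and 2 fell in WT-exo, against 1.93% and 2.18%. The genes that rose in both were Soat1, which esterifies cholesterol for storage, Nceh1, which hydrolyses cholesterol esters, and Npc1, which exports cholesterol from lysosomes, by 14%, 12% and 9.39% in EKO-exo and by 9.78%, 13.6% and 10.4% in WT-exo. Abca1, the cholesterol exporter, fell in both, with 503, 507 and 508 CPM in the EKO-exo libraries and 550, 593 and 557 CPM in the WT-exo libraries, against 684, 653 and 670 CPM in the PBS libraries. The 3 groups did not overlap, and Abca1 was also lower in EKO-exo than in WT-exo by 0.16 on the log2 scale (edgeR adjusted p = 0.00456). Lipa, the lysosomal acid lipase gene, was higher in EKO-exo than in WT-exo, with 3289, 3124 and 3304 CPM in the EKO-exo libraries and 3067, 2892 and 2971 CPM in the WT-exo libraries (0.12 ± 0.027, adjusted p = 0.0159). Mylip, whose product degrades lipoprotein receptors, fell in WT-exo (-0.13 ± 0.039, adjusted p = 0.0485) and was at -0.038 ± 0.039 in EKO-exo. Nceh1 and Abca1 passed against PBS in all 17 alternatives in both groups, and Soat1 did in EKO-exo. Between the exosome groups, Abca1 missed the threshold without WT-exo library 2 (edgeR adjusted p = 0.107). Lipa missed it without EKO-exo library 1 (0.194) or 3 (0.151), or WT-exo library 2 (0.188) or 3 (0.0919). These calls did not hold without the 3 libraries that stood apart, which leaves 1 WT-exo library. The log2 differences were then -0.125 for Abca1 and 0.101 for Lipa. Soat1 in WT-exo missed the threshold without PBS library 2 (0.0613), without WT-exo library 1 (0.0503) and without the 3 libraries (0.0831). Npc1 missed it in WT-exo without PBS library 2 (0.0687) and without the 3 libraries (0.144), and in EKO-exo without EKO-exo library 1 (0.0667) or 3 (0.121) or PBS library 1 (0.0556) or 2 (0.131). Mylip missed it in 11 alternatives, among them each that left out a library other than PBS library 1. Of these single-library settings, the adjusted p was highest without PBS library 2 (0.2). The setting without the 3 libraries, also among the 11, gave a log2 fold change of -0.108.

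**Figure D5:**
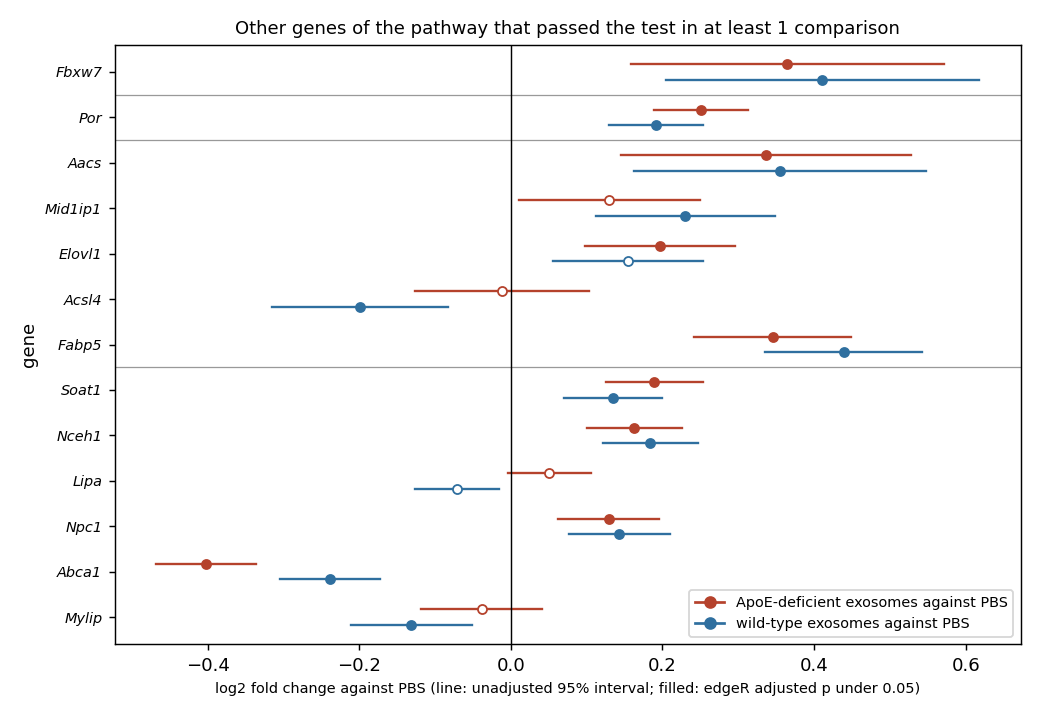
Log2 fold change against PBS of the other pathway genes that passed the test in at least 1 comparison, in EKO-exo (red, above) and WT-exo (blue, below), with unadjusted 95% intervals and filled points for an edgeR adjusted p under 0.05. Fbxw7, Por, Aacs, Fabp5, Soat1, Nceh1 and Npc1 are higher and Abca1 is lower in both groups.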

How the data were processed

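The values are raw counts of reads per Ensembl gene as deposited by the authors, in 1 column for each of the 9 libraries. RNA was purified on columns and made into mRNA libraries, per the labels' protocols. The submitters' processing notes name the aligner STAR 2.7.5c and the build GRCm38. For the annotation release, the counter and its use of strand, nothing is given in the sources. Whether reads of overlapping genes on opposite strands were told apart is therefore not known. Symbols, exon lengths and exon overlaps came from GENCODE M21, and promoter sequences from RefSeq.

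Genes were kept with edgeR's filterByExpr at a minimum count of 10, scaled by TMM (factors 0.995 to 1.01) and fitted over all 3 groups with edgeR 4.0.16 in R 4.3.3 (glmQLFit and glmQLFTest, Benjamini-Hochberg adjustment over all 13815 tested genes, threshold 0.05). Adjusted p-values in the text are edgeR's unless another tool is named. The biological coefficient of variation was 12%. Printed CPM values are TMM-normalised, and log2 CPM used a prior count of 2. Intervals are unadjusted and rest on the spread between libraries. Exact permutation of 3 against 3 libraries cannot pass the threshold for any gene and was not run. Alternatives were DESeq2 1.42.0, limma-voom (limma 3.58.1), RLE factors, other filters, fits on the compared libraries, a replicate block and leaving out libraries. The fits were tested on simulated counts, where DESeq2 called more unchanged genes than the other tools. No pair of libraries was a duplicate, with chi-square values per gene of 6.76 to 10.2 within groups and 7.7 to 18.4 between them.

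The 36 genes and the other lists were chosen with earlier results of these data known. Values per library are given for the genes called in at least 1 comparison and for Srebf1, Srebf2, Insig1, Insig2, Scap, Fasn, Scd1, Scd2 and Stard4. Of each other pathway list, up to 4 genes with the lowest p among those that passed are named in each comparison. Mylip, which passed in WT-exo against PBS with a higher p than those 4, Cyp51 and the further genes given with values were chosen after these were seen.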

Additional observations from a re-analysis of the deposited data

Results flagged for a closer look

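None of the 36 SREBP genes differed between the exosome groups past the adjusted threshold. Of the other pathway genes, 2 did, by edgeR's test of that difference itself. Abca1 was at -0.163 on the log2 scale in EKO-exo against WT-exo (adjusted p = 0.00456), with each EKO-exo library below each WT-exo library. The adjusted p was 0.107 without WT-exo library 2, and 1 without the 3 libraries that stood apart, which leaves 1 WT-exo library. Lipa was at 0.122 (adjusted p = 0.0159), with each EKO-exo library above each WT-exo library. It missed the threshold without EKO-exo library 1 (0.194) or 3 (0.151), without WT-exo library 2 (0.188) or 3 (0.0919), and without the 3 libraries (1).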

How the results depend on the processing

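Over 17 settings and 2404 values for single SREBP genes, 2375 kept their direction or stayed uncalled, 20 called values lost and 9 uncalled values gained significance, and no called value turned direction. Uncalled genes changed sign 106 times. In EKO-exo against PBS, 0 genes were called, with 1 without EKO-exo replicate 2, 1 without PBS replicate 3 and 1 without the 3 libraries apart on the components. In WT-exo against PBS, 3 genes were higher, with 4 by DESeq2, by limma-voom and at a minimum count of 50, each adding Cyp51, 3 by RLE factors, without the filter and on the compared libraries alone, and 1 without the 3 libraries. Leaving out single libraries gave 1 to 4 in this comparison, 0 to 1 in EKO-exo against PBS, 0 to 3 for both exosome groups against PBS, and 0 between the exosome groups. Both exosome groups against PBS gave 1 without the 3 libraries. That setting was added after seeing the data and leaves 1 WT-exo library, which is assumed to vary like the others. The median over the 36 genes ranged under single left-out libraries from 0.051 to 0.099 in EKO-exo and from 0.14 to 0.20 in WT-exo against PBS, and from -0.11 to -0.077 between them. Without the 3 libraries it was 0.096, 0.11 and -0.07 in these comparisons, against 0.086, 0.16 and -0.09 with them. The minimum count of 50 left 34 of the 36 genes.

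Same-numbered libraries correlated at -0.035 to 0.0402 in their deviations from the group mean, others at -0.0483 to 0.0385. Of the 9 libraries, 4 correlated best with their own number. These correlations did not show a pairing by replicate number, but with 3 libraries in a group they cannot exclude one. With the replicate number as a block, 4 of the 36 genes were higher in WT-exo, 0 in EKO-exo and 0 differed between the exosome groups. Calls over all genes rose with the block. In EKO-exo against PBS they went from 252 higher and 333 lower to 293 and 369. In WT-exo against PBS they went from 267 and 301 to 323 and 346. Over all genes, 96 were called between the exosome groups, against 149 by DESeq2, 144 with the block, 52 without EKO-exo replicate 1 and 10 without the 3 libraries, and 176 were called in WT-exo against PBS without the 3 libraries, against 568. The cause was not tested. Idi1 (7 to 45 counts per library), Fdps (9 to 65) and Scd1 (44 to 90) had the widest intervals among the 36 genes against PBS, and the part of depth in this was not tested.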
